A study of Homo sapiens with 12 samples.

Results

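Transcripts of chromosome 10 were low as a whole in IRAK4 knockout cells against wild-type cells of this experiment. The 59 genes described here lie on chromosome 10 and were chosen as a set for that fall, which NMT2 alone did not share. They are 59 of the 30017 gene symbols in the count table and 59 of the 557 chromosome 10 genes that could be tested. The selection names no threshold, so there are no members just inside or just outside a limit. The knockout against wild-type differences of the members are therefore given as a description, without a test. All 59 symbols were found in the table and passed the filter on low counts (lowest count of any member in any library 169). RefSeq (GRCh38.p14) places all of them on chromosome 10, 22 on the short arm and 37 on the long arm.

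The libraries hold polyA RNA of THP-1, an established line of human monocytic acute myeloid leukaemia. The study set knockout cells against wild-type cells, and cells given CC-885 against cells given the solvent DMSO, with 3 libraries in each of the 4 groups. Knockout cells had been electroporated with Cas9 and a guide RNA against IRAK4, and wild-type cells with Cas9 and no guide. Cells of either genotype had then been grown from single cells and screened by PCR and Sanger sequencing. The groups were knockout with 50 nM CC-885 for 12 h, wild type with the same dose and time, knockout with DMSO and wild type with DMSO. CC-885 is a cereblon modulator: bound to cereblon, through which an E3 ubiquitin ligase takes its substrates, it has GSPT1 marked for destruction. GSPT1 is a factor of translation termination. How many clones each genotype stands for is not in the labels, and they do not say that replicates were cultured apart. The knockout and a difference between clones therefore cannot be told apart, and p-values measure only the spread between these libraries.

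A human cell normally carries a pair of each autosome. Losing one copy of a chromosome tends to lower the transcripts of the genes along it together, while genes under strong feedback, or read from one active copy only, can depart from their neighbours. Leukaemia lines often hold abnormal copy numbers, and single-cell cloning passes the karyotype of the founding cell to the whole clone. Copies of chromosome 10 were not counted in these data. The members share no single pathway: they include cytoskeletal and granule proteins, mitochondrial enzymes, chromatin regulators, mitotic proteins, kinases of the MAP kinase and NF-kB pathways, and chaperone cofactors.

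Library totals ranged from 46903984 to 56675539 counts, and levels are counts scaled to a common depth (CPM). IRAK4, the kinase targeted by the guide, averaged 8.26 ± 0.847 CPM in knockout under DMSO, where wild type had 52.2 ± 1.57 CPM (SD, n = 3 each). Under CC-885 it averaged 30.7 ± 1.05 CPM in knockout and 72.8 ± 9.53 CPM in wild type, so the knockout libraries held IRAK4 transcript, more of it with the drug, at a difference from wild type of -2.66 under DMSO and -1.25 under CC-885. All 12 markers of monocytic leukaemia cells were detected, with summed levels of 1871 to 6635 CPM over the libraries, while the summed markers of T and NK, B, erythroid, epithelial and stromal or endothelial cells never passed 20.9 CPM. The monocytic sum itself lay at 5308 to 6635 CPM in knockout, against 3816 to 3907 CPM in wild-type libraries, under DMSO, and at 1871 to 1906 CPM in knockout and 2099 to 2187 CPM in wild type under CC-885; its part in the results was not tested. In bulk RNA, fewer cells of a type and less RNA per cell cannot be told apart. Replicate 3 of wild type with CC-885 stood apart: chi-square values per degree of freedom between its counts and those of the other 2 were 62.3 and 76.1, while all other replicate pairs lay between 4.10 and 21.0. It is the only CC-885 library whose name starts with 52, while the names of the others start with 51. Under DMSO, replicates 2 and 3 of wild type and replicate 3 of knockout also start with 52. What this prefix stands for is not in the labels. Values without that library are given for SRGN, EPC1, TFAM and the count of differences in response, and not for every result. The scaling used edgeR's TMM factors, which centre changes on the bulk of genes, and changes are log2 fold changes of the edgeR fit.

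The members made up a smaller part of the RNA in knockout cells. They held 0.538%, 0.560% and 0.538% of all counts in the knockout libraries under DMSO, against 0.882%, 0.901% and 0.895% in the wild-type libraries. Under CC-885 they held 0.469%, 0.458% and 0.453% in knockout and 0.795%, 0.796% and 0.856% in wild type. No knockout library reached the share of any wild-type library under either treatment. The other chromosome 10 genes were lower in the same libraries, with 1.10% ± 0.026 of counts in knockout and 2.09% ± 0.035 in wild type under DMSO (SD, n = 3 each). Such shares weigh genes by their counts. All chromosome 10 genes without SRGN and VIM averaged 1.44% in knockout and 2.72% in wild type under DMSO, and 1.55% and 2.82% under CC-885.

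Per gene, the median knockout minus wild-type difference of the 59 members was -0.99 under DMSO, with quartiles of -1.20 and -0.80, and -0.79 under CC-885, with quartiles of -1.07 and -0.63. Every knockout library lay below every wild-type library for 58 members under DMSO, where 34.5% of all tested genes did so, and for 58 under CC-885, where 32.4% did. Since this contrast chose the members, nothing is read from these counts. The 498 other tested chromosome 10 genes had medians of -0.99 under DMSO and -0.92 under CC-885, so the members are a sample of a drop that 446 of those 498 genes also showed in sign under DMSO. The 14315 tested genes placed elsewhere had medians of -0.05 and 0.00. Among the 22 other chromosomes the medians ran from -0.29 to 0.04 under DMSO and from -0.27 to 0.12 under CC-885, with chromosome 5 lowest both times.

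**Figure D1:**
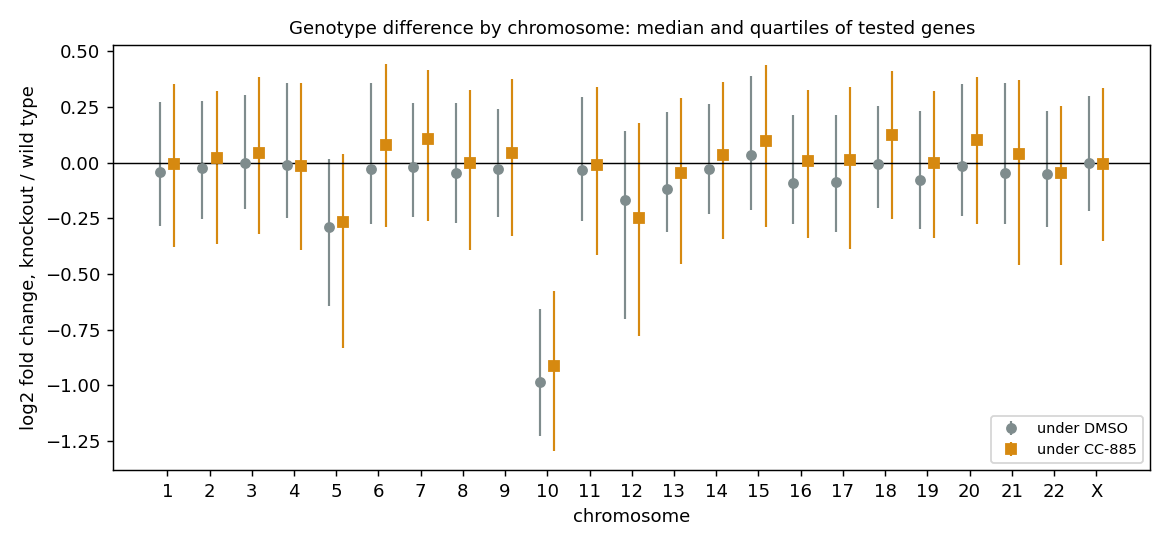
Median (points) and quartiles (lines) of the log2 fold change, knockout over wild type, of the tested genes on each chromosome, under DMSO (grey circles) and CC-885 (orange squares). Chromosome 10 sits near -1 under both treatments, and no other chromosome's median lies below -0.29. The first quartiles of chromosomes 5 and 12 reach -0.64 and -0.70 under DMSO.

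The difference did not sit in one segment. Members on the short arm had a median of -0.99 under DMSO and -0.77 under CC-885, and members on the long arm -1.01 and -0.87. Over all tested chromosome 10 genes in windows of 10 Mb, the 13 windows with 20 or more genes had medians between -1.17 and -0.87 under DMSO and between -1.03 and -0.76 under CC-885. The first member along the chromosome, ZMYND11 (a reader of a histone H3 lysine methylation mark, chr10:130088-254637), stood at -1.08 under DMSO, and the last, MTG1 (a GTPase of mitochondrial ribosome assembly), at -0.70.

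**Figure D2:**
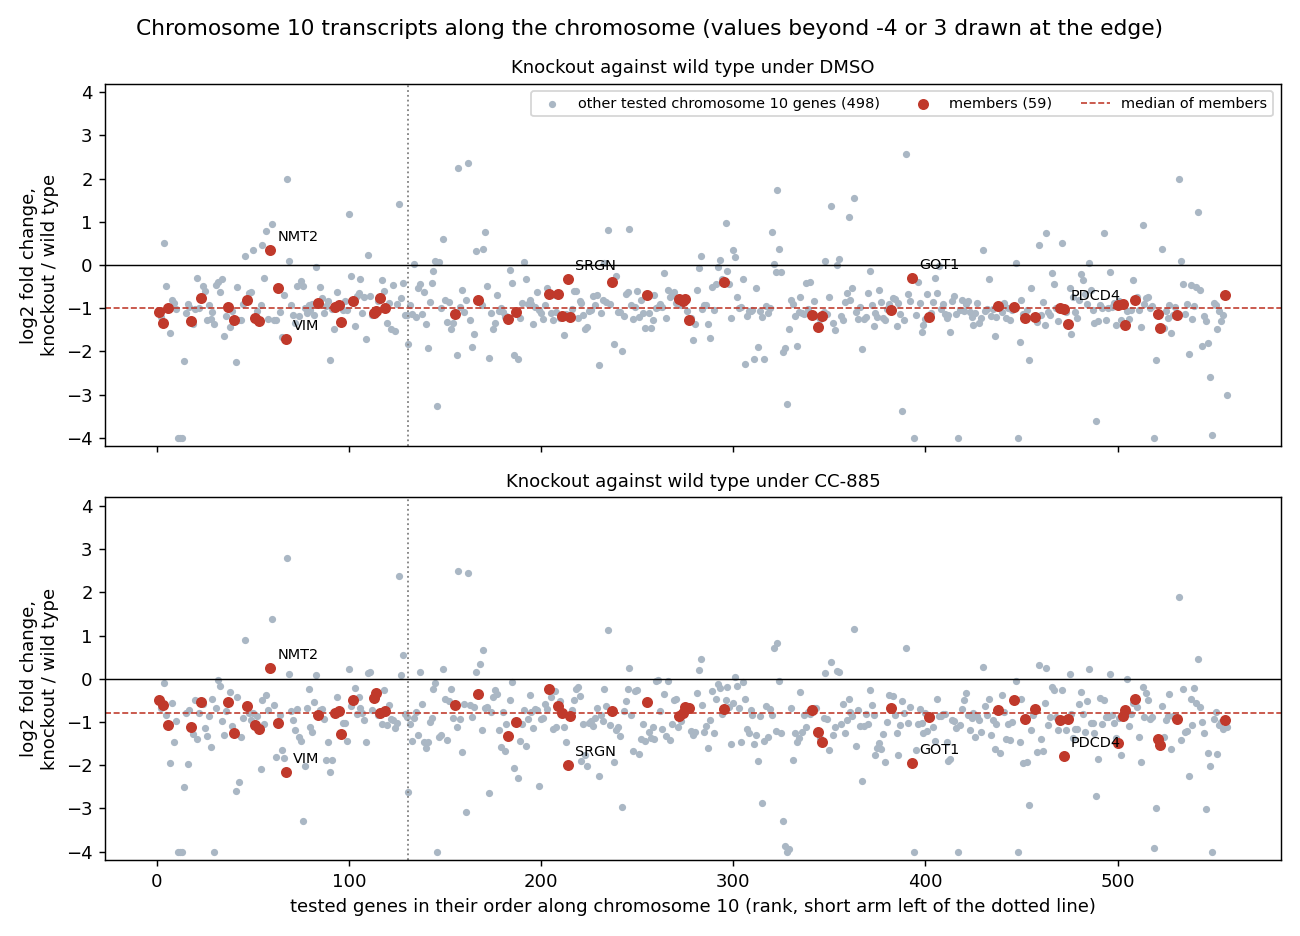
Log2 fold change, knockout over wild type, of the tested chromosome 10 genes in their order along the chromosome under DMSO (top) and CC-885 (bottom). Members are red and other genes grey, the dashed line is the members' median, the dotted line parts the arms, and NMT2 is the one member above 0.

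Among the cytoskeletal and adhesion genes, the lowest was VIM, which encodes vimentin, the intermediate filament protein of mesenchymal and many blood cells (chr10:17228241-17237593). VIM had 61.6, 62.5 and 62.0 CPM in knockout under DMSO, against 236, 186 and 187 CPM in wild type. It had 19.2, 20.2 and 18.9 CPM in knockout under CC-885, against 93.3, 90.9 and 73.7 CPM in wild type. The groups were far apart both times, and the differences of -1.71 ± 0.10 and -2.15 ± 0.10 (SE) were the lowest of the 59 members. The middle of this group of 8 was held by ABI1, an adaptor of the WAVE actin-nucleating complex, at -0.98, and ACTR1A, the actin-related filament of dynactin, at -0.94 under DMSO. The group's median was -0.96 under DMSO and -0.80 under CC-885. A transcript on the opposite strand, VIM-AS1, overlaps VIM, and the strand setting of the counting is not given in the sources used here.

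The 11 mitochondrial and metabolic members had a median of -0.94 under DMSO. OAT, the mitochondrial ornithine aminotransferase, was lowest, with 30.1, 34.9 and 37.3 CPM in knockout and 92.0, 92.2 and 97.4 CPM in wild type under DMSO. Its difference was -1.46 ± 0.10 under DMSO and -1.53 ± 0.10 under CC-885. YME1L1, a protease of the mitochondrial inner membrane, and PRDX3, the mitochondrial peroxiredoxin, each stood at -0.94 under DMSO and at -0.75 and -1.49 under CC-885.

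In protein folding and turnover, IDE, the insulin-degrading enzyme, averaged 19.0 ± 1.02 CPM in knockout and 51.6 ± 2.27 CPM in wild type under DMSO (SD, n = 3 each). That made a difference of -1.44 ± 0.07. CUL2, the scaffold of the VHL ubiquitin ligase, and WDR37, which forms a complex with the sorting proteins PACS1 and PACS2, both stood at -0.99. HHEX, a homeobox transcription factor of haematopoietic and liver development, had 11.0, 11.2 and 8.34 CPM in knockout and 23.2, 23.0 and 22.6 CPM in wild type under DMSO. It differed by -1.17 there and by -1.46 under CC-885. HHEX and IDE are close neighbours on the long arm.

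The 6 cell cycle and genome maintenance members had a median of -1.15 under DMSO and -1.06 under CC-885, the lowest role-group median under CC-885. MASTL, the Greatwall kinase that restrains the phosphatase PP2A-B55 in mitosis, averaged 16.7 ± 0.533 CPM in knockout and 41.6 ± 3.77 CPM in wild type under DMSO, a difference of -1.32. MASTL and YME1L1 lie on opposite strands and overlap in GENCODE, so reads of one may have been counted for the other. BUB3, a spindle checkpoint protein, stood at -1.13 and BCCIP, a partner of BRCA2, at -1.17 under DMSO. The 4 kinase signalling members, which include CHUK (the IKK alpha kinase of the NF-kB pathway, -1.20) and CCDC6 (a coiled-coil protein known as a fusion partner of RET, -1.08), had a median of -1.14. The 8 members of membrane traffic, lysosome and granule had the median nearest 0 under DMSO, -0.79, with PIP4K2A, a phosphoinositide kinase, at -0.87 and ANXA7, an annexin, at -0.70 near its middle.

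One member was not lower in knockout cells. NMT2, the second of the human N-myristoyltransferases, which attach the fatty acid myristate to the amino end of proteins (chr10:15105700-15168693), had 5.44, 5.91 and 5.74 CPM in knockout under DMSO, against 4.77, 4.35 and 4.42 CPM in wild type. Under CC-885 it had 4.92, 3.74 and 4.92 CPM in knockout and 3.55, 4.41 and 3.42 CPM in wild type. The knockout libraries all lay above the wild-type libraries under DMSO, as for 25.3% of all tested genes, while the groups overlapped under CC-885, where 30.7% of all tested genes had every knockout library above. The differences were 0.34 ± 0.13 and 0.25 ± 0.13 (SE), and they stayed above 0 in each alternative processing and without each library in turn. NMT2 was also the member with the lowest counts. Its tested neighbours on either side went opposite ways. RPP38, a protein of RNase P whose gene overlaps NMT2 on the other strand in GENCODE, averaged 8.62 ± 0.461 CPM in knockout and 20.6 ± 0.672 CPM in wild type under DMSO, a difference of -1.26. FAM171A1 averaged 2.49 ± 0.188 CPM in knockout and 1.28 ± 0.254 CPM in wild type, a difference of 0.95, with 1.38 under CC-885.

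Genes above 0 were few elsewhere on the chromosome as well. Of the 498 other tested chromosome 10 genes, 52 lay above 0 under DMSO, against 6357 of 14315 genes placed on other chromosomes. Of 339 other chromosome 10 genes that reached 5 CPM in a group under DMSO, 11 lay above 0 under DMSO and 9 under both treatments. The highest 3 at that level were ANXA8 (2.36), DHX32 (1.99) and ENTPD1 (1.56). ANXA8 belongs to a set of near-identical annexin genes whose reads the counting may have split. DHX32 overlaps the member BCCIP on the other strand: it averaged 8.80 ± 0.243 CPM in knockout and 2.20 ± 0.286 CPM in wild type under DMSO, while BCCIP averaged 36.3 ± 2.52 CPM in knockout and 81.5 ± 4.74 CPM in wild type. The lowest 3 at that level were AKR1C1 and AKR1C2, close paralogues that encode aldo-keto reductases of steroid metabolism, and the homeobox gene HMX3. AKR1C1 averaged 0.026 ± 0.012 CPM in knockout and 5.01 ± 1.06 CPM in wild type, under DMSO. HMX3 averaged 0.399 ± 0.106 CPM in knockout and 7.87 ± 0.572 CPM in wild type.

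Another 4 members stood closest to 0 below NMT2 under DMSO; they were picked out after their values were seen. GOT1, the cytosolic aspartate aminotransferase, stood at -0.31, SRGN, the proteoglycan serglycin that packs granules of blood cells, at -0.32, and PSAP, the precursor of the lysosomal saposins, and ANXA11, an annexin, each at -0.39. The same 4 stood at -1.94, -1.99, -0.75 and -0.69 under CC-885. Over the whole list the order of the members was kept only in part between the treatments. Across the 59 members the differences under DMSO and under CC-885 had Pearson's r of 0.311 and Spearman's rho of 0.344. Over the 57 without SRGN and GOT1, r was 0.587 and rho 0.476. For the 498 other chromosome 10 genes r was 0.787 and rho 0.602. Their differences under DMSO spread more widely (SD 0.95) than those of the members (SD 0.34), so the r values are not comparable. These correlations are over genes, not independent replicates, and come from separate libraries scaled together.

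**Figure D3:**
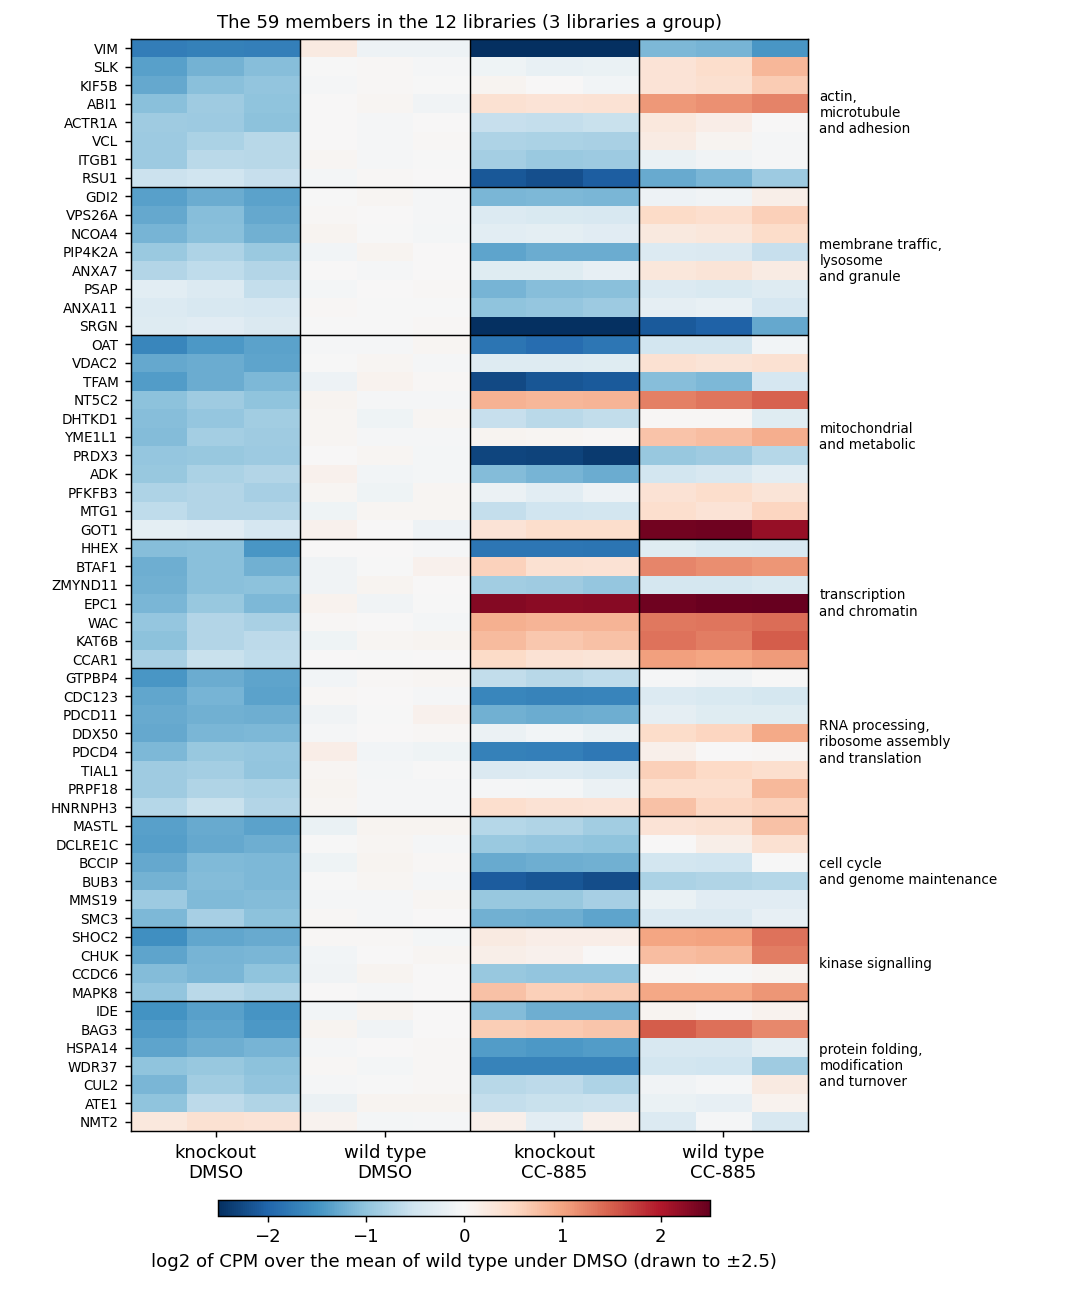
Log2 of each member's CPM over its mean in wild type under DMSO, in each library, grouped by role and ordered within a role by the difference under DMSO. Blue marks lower and red higher; 58 of the 59 rows are bluer in knockout than in wild type in both pairs of groups, and NMT2 at the bottom is not.

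CC-885 moved most members in both genotypes, and more of them up than down. These tests share libraries with the genotype difference that chose the members. In knockout cells, 35 members were higher under CC-885 than under DMSO at an edgeR adjusted p below 0.05 and 18 were lower, against 38.9% and 40% of all tested genes. In wild-type cells 28 were higher and 20 lower, against 35.7% and 36.6% of all tested genes. A change of at least 2-fold was called upward for 15 members in knockout and 11 in wild type (21.5% and 16.6% of all tested genes), and downward for 5 in knockout and 3 in wild type (20.2% and 12.7%). Counted in either direction, 89.8% of members were called in knockout and 81.4% in wild type, where 78.9% and 72.3% of all tested genes were. All tested genes include many with lower counts than the members. Of the 358 other chromosome 10 genes that, like every member, reached 5 CPM in a group, 154 were called higher in knockout, 146 lower and 58 neither. In wild type 145 of these 358 were called higher, 144 lower and 69 neither. Higher calls made up a larger share of the members than of all tested genes in both genotypes (59.3% in knockout and 47.5% in wild type), and lower calls a smaller one (30.5% and 33.9%). These differences in share were not tested. The median response of the members was 0.28 in knockout and 0.06 in wild type, where all tested genes had -0.03 in both. Under upper-quartile scaling the wild-type median was -0.01 for the members and -0.10 for all tested genes.

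The 2 genotypes largely moved together. Both responses were called higher for 28 members (31.9% of all tested genes) and lower for 16 (32% of all). Across the 59 members, the response in knockout and that in wild type, which come from different libraries, had r of 0.913 and rho of 0.934, and r was 0.884 over the other chromosome 10 genes. ZMYND11 alone was called in opposite directions, 0.18 ± 0.07 in knockout (edgeR adjusted p = 0.0239) and -0.42 ± 0.07 in wild type (adjusted p = 2.81e-05). Its call in knockout was lost under upper-quartile scaling, with library size alone, with no filter on low counts, and without knockout DMSO replicate 1 or knockout CC-885 replicate 1 or 2, with adjusted p between 0.0766 and 0.683.

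**Figure D4:**
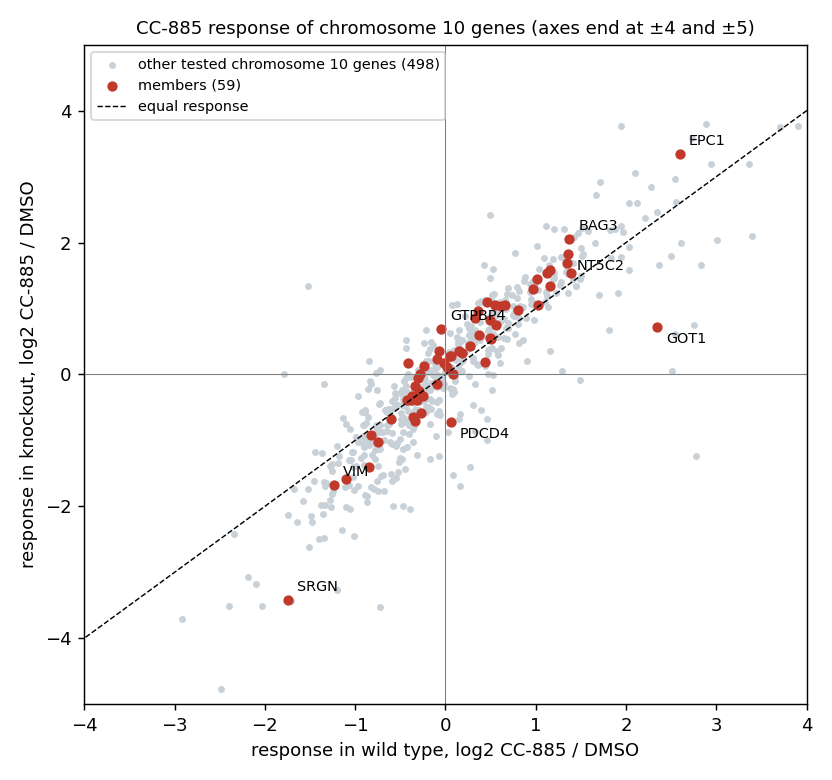
Response to CC-885 (log2, CC-885 over DMSO) of the tested chromosome 10 genes in knockout (vertical axis) and in wild type (horizontal axis), with the line of equal response dashed and members in red. Most red points follow the line; GOT1 and PDCD4 lie below it on the right and SRGN lies below it on the left.

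Transcription and chromatin was the role group with the highest median response. Of its 7 members, 6 rose and 1 fell in knockout, and 5 rose and 2 fell in wild type, with a median response of 1.53 in knockout and 1.16 in wild type. EPC1, a scaffold subunit of the NuA4/TIP60 histone acetyltransferase complex (chr10:32267751-32378769), had 192, 187 and 189 CPM in knockout under CC-885, against 17.9, 20.4 and 18.0 CPM in knockout under DMSO. In wild type it had 210, 216 and 285 CPM under CC-885, against 41.9, 36.8 and 38.9 CPM under DMSO. The treated libraries of both genotypes lay far above all untreated ones. EPC1 rose by 3.34 ± 0.11 in knockout (adjusted p = 2.7e-13) and by 2.60 ± 0.10 in wild type (adjusted p = 6.03e-12). The other rises included KAT6B, a histone acetyltransferase (1.53 ± 0.09 in knockout and 1.39 ± 0.09 in wild type), WAC, an adaptor of histone H2B ubiquitination (1.69 ± 0.06 in knockout and 1.35 ± 0.06 in wild type), and BTAF1, a regulator of the TATA-binding protein (1.59 ± 0.07 in knockout and 1.16 ± 0.07 in wild type). The member of this group that fell in both genotypes was HHEX, by 0.65 in knockout (adjusted p = 2.06e-05) and 0.36 in wild type (adjusted p = 0.00287).

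Kinase signalling was the role group with the next highest median response. Among the 4 kinase signalling members, 3 rose in each genotype and none fell: SHOC2, a scaffold of RAS to RAF signalling (1.54 ± 0.09 in knockout and 1.12 ± 0.09 in wild type), MAPK8, the stress kinase JNK1 (1.45 ± 0.08 in knockout and 1.01 ± 0.08 in wild type), and CHUK (1.29 ± 0.11 in knockout and 0.97 ± 0.11 in wild type). CCDC6 did not pass the test in either. BAG3, a cochaperone of HSP70 that acts in selective autophagy and is induced by proteotoxic stress (chr10:119651380-119677819), had 59.7, 61.3 and 63.1 CPM in knockout under CC-885, against 14.6, 15.6 and 14.4 CPM under DMSO. In wild type it had 111, 102 and 90.1 CPM under CC-885, against 40.8, 36.7 and 39.5 CPM under DMSO. No treated library overlapped an untreated one of its genotype, and the rises were 2.05 ± 0.08 in knockout (adjusted p = 9.2e-13) and 1.37 ± 0.08 in wild type (adjusted p = 1.29e-10). Of the 7 members of protein folding, modification and turnover, 4 rose and 3 fell in knockout, and 1, BAG3, rose and 2 fell in wild type. HSPA14, an HSP70 family chaperone that works at the ribosome, fell in both, by 0.17 on the log2 scale in knockout (edgeR adjusted p = 0.0234) and by 0.33 in wild type (adjusted p = 0.000216), and the group's median response was 0.24 in knockout and -0.09 in wild type. NT5C2, a cytosolic nucleotidase, rose by 1.82 ± 0.07 in knockout and 1.36 ± 0.06 in wild type.

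The largest falls came from several role groups, whose other members often rose. In knockout the mitochondrial and metabolic group had 7 members called higher and 4 lower, and the actin, microtubule and adhesion group 4 higher and 2 lower. SRGN (chr10:69087603-69104811) had 167, 190 and 176 CPM in knockout under CC-885, against 1893, 1943 and 1852 CPM under DMSO. In wild type it had 552, 585 and 976 CPM under CC-885, against 2340, 2351 and 2408 CPM under DMSO. All treated libraries lay below all untreated ones, with the library that stood apart, replicate 3 of wild type with CC-885, the highest of the treated. SRGN fell by 3.42 ± 0.19 in knockout (adjusted p = 1.23e-08) and by 1.75 ± 0.18 in wild type (adjusted p = 3.79e-06), or by 2.06 in wild type without that library. VIM fell by 1.68 ± 0.10 in knockout (adjusted p = 2.96e-10) and by 1.24 ± 0.10 in wild type (adjusted p = 1.07e-08). RSU1, which binds the adhesion adaptor PINCH, fell by 1.58 ± 0.08 in knockout and 1.10 ± 0.08 in wild type. PRDX3 fell by 1.40 ± 0.06 in knockout and 0.85 ± 0.06 in wild type, and BUB3 by 1.02 ± 0.05 in knockout and 0.75 ± 0.05 in wild type. TFAM, which packages mitochondrial DNA and starts its transcription, fell by 0.91 ± 0.16 in knockout and 0.83 ± 0.15 in wild type. Without replicate 3 of wild type with CC-885, the fall of TFAM in wild type was 1.09. ITGB1 and VCL, the integrin beta 1 chain and vinculin of focal adhesions, did not pass the test in either genotype, with responses between -0.14 and 0.08.

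The promoters of 4 members are shown, as those of the 2 largest called rises and 2 largest called falls in wild type among members with an entry in the RefSeq promoter set (GRCh38.p14, 250 bases before to 50 bases after the start, 5′ to 3′ on the gene's own strand). EPC1 lies at chr10:32378720-32379019 (minus strand), GOT1 at chr10:99430575-99430874 (minus), VIM at chr10:17227991-17228290 (plus) and RSU1 at chr10:16817375-16817674 (minus). Capitals mark matches to the motifs searched.
EPC1 promoter: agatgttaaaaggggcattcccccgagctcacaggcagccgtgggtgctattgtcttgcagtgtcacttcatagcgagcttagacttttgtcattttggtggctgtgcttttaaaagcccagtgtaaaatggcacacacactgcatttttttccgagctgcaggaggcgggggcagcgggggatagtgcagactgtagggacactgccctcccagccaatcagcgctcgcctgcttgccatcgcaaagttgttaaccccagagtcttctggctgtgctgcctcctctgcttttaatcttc
GOT1 promoter: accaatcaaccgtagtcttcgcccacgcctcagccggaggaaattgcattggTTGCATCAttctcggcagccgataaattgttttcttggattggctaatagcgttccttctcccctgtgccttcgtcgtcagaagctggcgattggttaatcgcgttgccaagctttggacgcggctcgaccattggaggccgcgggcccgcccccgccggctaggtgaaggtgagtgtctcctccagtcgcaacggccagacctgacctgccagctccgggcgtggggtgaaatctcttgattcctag
VIM promoter: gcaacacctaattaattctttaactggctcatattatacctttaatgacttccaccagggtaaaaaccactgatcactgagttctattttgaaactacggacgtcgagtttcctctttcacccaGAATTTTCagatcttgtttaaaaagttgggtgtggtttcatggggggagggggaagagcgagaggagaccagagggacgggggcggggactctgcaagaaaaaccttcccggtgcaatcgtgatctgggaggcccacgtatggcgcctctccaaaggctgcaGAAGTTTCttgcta
RSU1 promoter: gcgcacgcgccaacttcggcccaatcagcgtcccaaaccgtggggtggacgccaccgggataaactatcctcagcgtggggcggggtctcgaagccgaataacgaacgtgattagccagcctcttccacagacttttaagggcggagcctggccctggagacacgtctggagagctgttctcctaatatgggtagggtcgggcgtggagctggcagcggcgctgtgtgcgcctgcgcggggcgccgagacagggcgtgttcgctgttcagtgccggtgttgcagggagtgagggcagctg
The letters searched on both strands were AP-1 TGANTCA, the cyclic AMP response element TGACGTCA, the E-box CACGTG, a heat shock pair GAANNTTC and the composite CEBP-ATF element TGATGNAA. GOT1 holds 1 composite match, first base at -198 from the start, and VIM holds 2 heat shock pairs, at -126 and 37; EPC1 and RSU1 hold none of the 5. The composite element stood in 1 of the 52 member promoters with an entry (1.92%), against 3.67% of 27305 promoters, and the heat shock pair in 2 (3.85%), against 6.87%. AP-1 letters stood in 7.69% against 7.76%, the cyclic AMP element in 1.92% against 1.98%, and the E-box in 3.85% against 7.43%. A match describes these letters and not binding, and motifs were not tied to the responses by any test.

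The response itself differed between the genotypes for 28 members. The difference (response in knockout minus response in wild type) was called higher for 19 members and lower for 9, against 17.9% and 16.8% of all tested genes. It was above 0 for 41 of 59 members, with a median of 0.18, where 252 of the 498 other chromosome 10 genes lay above 0, with a median of 0.01. This test uses all 12 libraries, including those in which the members were chosen as lower in knockout. Without replicate 3 of wild type with CC-885, 29 members were called higher, against 22.3% of all tested genes. ABI1, YME1L1, BCCIP, CHUK and CUL2 were among these 29 and not among the 19 called with that library. Of the 28 members that rose in both genotypes, 26 rose by more in knockout, with 14 of the differences called higher and 1, GOT1, called lower. Of all tested genes that rose in both, 75.7% rose by more in knockout, with 36.2% of the differences called higher and 5.03% called lower. Of the 16 that fell in both, 12 fell by more in knockout, with 7 of the differences called lower. Of all tested genes that fell in both, 76.0% fell by more in knockout, with 34.2% of the differences called lower.

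Besides EPC1 and BAG3, GTPBP4 had one of the largest positive differences. GTPBP4, a GTPase of large ribosomal subunit assembly (chr10:988434-1019932), had 79.5, 75.5 and 78.7 CPM in knockout under CC-885, against 44.6, 51.8 and 48.8 CPM under DMSO. In wild type it had 119, 114 and 122 CPM under CC-885, against 116, 125 and 126 CPM under DMSO. The knockout groups were apart and the wild-type groups overlapped, and the responses differed by 0.73 ± 0.09 (edgeR adjusted p = 2.02e-05). EPC1 responses differed by 0.74 ± 0.14 (adjusted p = 0.000922), or by 0.89 without replicate 3 of wild type with CC-885, and BAG3 responses by 0.67 ± 0.11 (adjusted p = 0.000215). Smaller differences in this direction included KIF5B, the heavy chain of conventional kinesin (0.65 ± 0.11), VDAC2, a channel of the mitochondrial outer membrane (0.59 ± 0.07), and NCOA4, the autophagy receptor for ferritin (0.53 ± 0.09).

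GOT1, SRGN and PDCD4 had the largest negative differences. GOT1 (chr10:99396870-99430624) had 17.8, 19.1 and 19.0 CPM in knockout under CC-885, against 11.9, 11.6 and 10.5 CPM under DMSO. In wild type it had 75.0, 75.6 and 63.6 CPM under CC-885, against 15.2, 14.1 and 12.9 CPM under DMSO. Treated wild-type libraries lay far above all others. GOT1 rose by 0.72 ± 0.09 in knockout (adjusted p = 1.57e-06) and by 2.35 ± 0.09 in wild type (adjusted p = 1.57e-12), and the responses differed by -1.63 ± 0.12 (adjusted p = 3.56e-07). The SRGN responses given above differed by -1.67 ± 0.25 (adjusted p = 0.000448), and by -1.36 without replicate 3 of wild type with CC-885.

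PDCD4, an inhibitor of the translation initiation helicase eIF4A (chr10:110871928-110900006), had 27.2, 27.0 and 25.7 CPM in knockout under CC-885, against 40.3, 45.9 and 45.3 CPM under DMSO. In wild type it had 96.3, 89.1 and 90.1 CPM under CC-885, against 99.0, 84.1 and 81.3 CPM under DMSO. The knockout libraries under CC-885 were lowest of all and the wild-type groups overlapped. PDCD4 fell by 0.72 ± 0.08 in knockout (adjusted p = 3.84e-07), its response in wild type was 0.06 ± 0.08 (adjusted p = 0.496), and the responses differed by -0.78 ± 0.11 (adjusted p = 7.37e-05). PDCD4 also overlaps a transcript on the opposite strand, PDCD4-AS1.

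**Figure D5:**
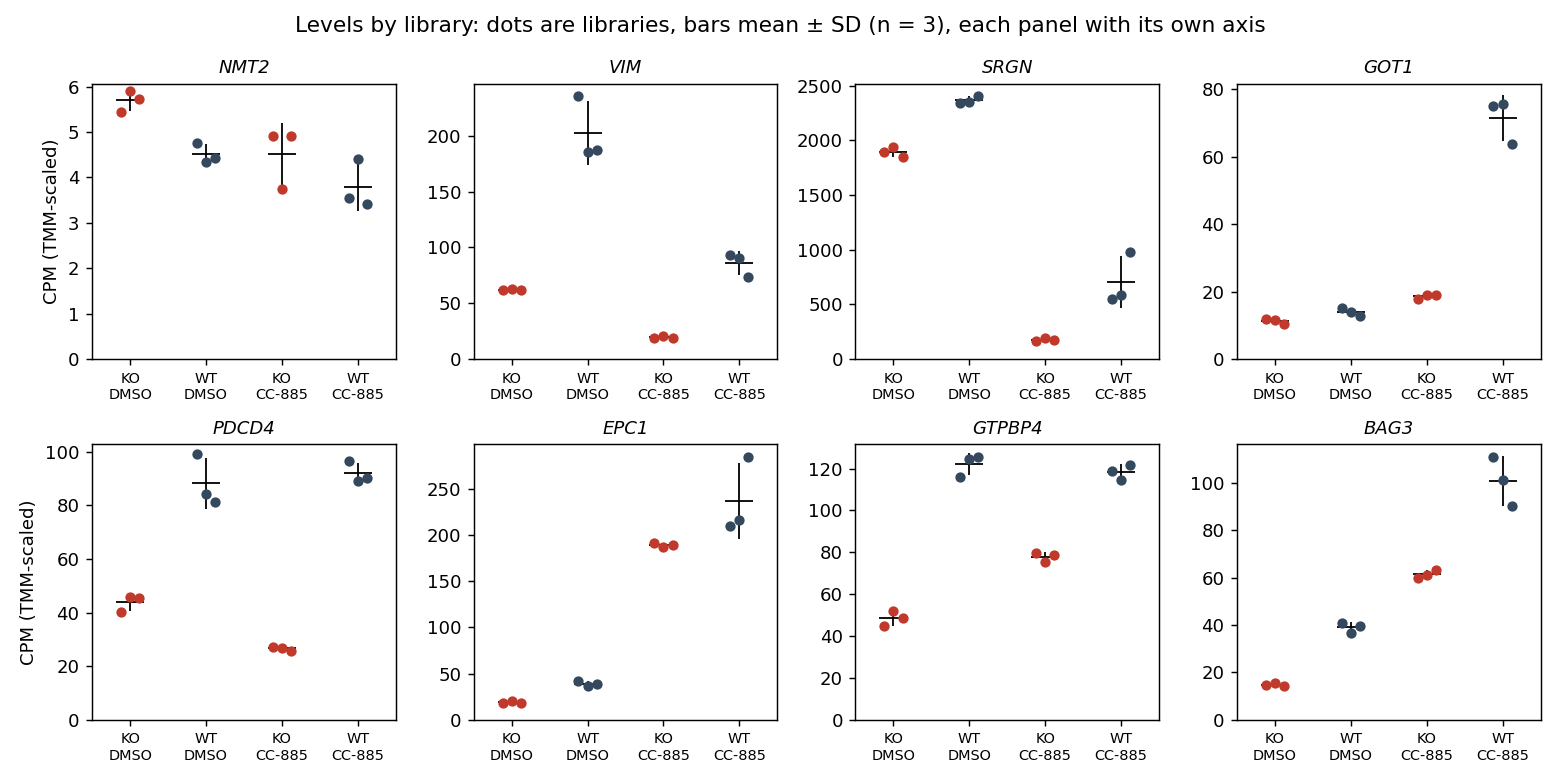
CPM of 8 members in each library (dots), with mean and SD of the 3 libraries of a group (bars), knockout in red and wild type in dark blue. NMT2 is the one gene whose knockout libraries lie above wild type under DMSO, and the ratio between the genotypes is larger under CC-885 for SRGN, GOT1 and PDCD4 and closer to 1 for EPC1, GTPBP4 and BAG3.

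The difference of knockout from wild type was closer to 0 under CC-885 than under DMSO for 42 members (71.2%), for 52.0% of the other tested chromosome 10 genes and for 44.1% of all tested genes. Knockout means were more than 2-fold below wild type for 29 members (49.2%) under DMSO and for 17 (28.8%) under CC-885, and for 49.0% and 44.6% of the other chromosome 10 genes. The members were chosen as low in knockout, and nothing is read from these shares. Some members averaged more in knockout cells with CC-885 than in wild type with DMSO, and how many of all tested genes did so was not counted. EPC1, for instance, averaged 189 ± 2.58 CPM in treated knockout cells and 39.2 ± 2.56 CPM in untreated wild type (SD, n = 3 each). By contrast, VIM averaged 19.4 ± 0.707 CPM in treated knockout cells and 203 ± 28.6 CPM in untreated wild type, and SRGN averaged 178 ± 11.6 CPM in treated knockout cells and 2366 ± 36.5 CPM in untreated wild type.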

How the data were processed

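PolyA RNA of 12 THP-1 libraries was sequenced as paired ends, per the labels. The authors deposited raw counts per gene symbol, not normalized; per the submitters' processing notes the tools were FastQC 0.11.2, HISAT2 2.0.5 and featureCounts 1.5.2 with the human build GRCh38. Per the labels, the extraction protocol lists FastQC 0.11.7 and a mouse build (mm10) instead; the symbols are human. Neither strand nor multi-mapping settings are given there. Of 59 members, 18 overlap another tested gene and 19 have a named pseudogene, so their counts may be shared.

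Counts were filtered with filterByExpr by group, which left 16010 of 30017 symbols, scaled by TMM and fitted with edgeR 4.0.16 (quasi-likelihood, robust, R 4.3.3) over all 12 libraries with 1 coefficient per group. P-values were adjusted by Benjamini-Hochberg over all 16010 genes and called below 0.05. SE was derived from the F statistic. The fit was tested on simulated data with known changes. Genes were placed by symbol in RefSeq GRCh38.p14, where 93.1% of tested genes matched; arms were parted at 40 Mb. The deposited counts range from 46903984 to 56675539 per library and the biological coefficient of variation was 0.0899. The members, role groups, marker lists and motifs were chosen with earlier results of these data known. Members named are those above 0 in knockout against wild type, the 6 with the lowest mean difference, the 5 largest called rises and falls in each genotype, the 6 largest called differences in response, and 2 nearest the median of each role group; others illustrate a role group or were chosen after their values were seen. Non-members named are the neighbours of NMT2 and the 3 highest and lowest other chromosome 10 genes under DMSO among those with a mean of 5 CPM or more in the higher group.

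In knockout against wild type under DMSO, deviations of libraries with the same title number had correlations of 0.152 to 0.237. Those with different numbers had -0.228 to 0.098. In the other comparisons same-numbered libraries did not consistently deviate together, and differently numbered ones reached 0.310 in the knockout response. Alternatives were DESeq2 1.42.0, other scalings and filters, replicate blocks, the library-name prefix, the compared groups alone, and each library left out in turn.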

Additional observations from a re-analysis of the deposited data

Results flagged for a closer look

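The test of the difference in response between the 2 genotypes (edgeR, adjusted over all 16010 genes) called 19 members higher and 9 lower. The 6 called members with the largest differences are listed here, and other named members were called as well. The response in knockout minus that in wild type was -1.67 for SRGN, -1.63 for GOT1 and -0.78 for PDCD4. It was 0.74 for EPC1, 0.73 for GTPBP4 and 0.67 for BAG3. Each kept its sign and its call under every alternative run and without each library in turn. These differences use the libraries in which the members were chosen as lower in knockout.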

How the results depend on the processing

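With each library left out in turn, the members called higher under CC-885 numbered 31 to 35 in knockout and 26 to 28 in wild type, and those called lower 16 to 19 in knockout and 19 to 20 in wild type. The difference in response was called higher for 17 to 29 members and lower for 8 to 10, the 29 being without wild-type CC-885 replicate 3; with no filter on low counts it was called higher for 14. The median difference of knockout from wild type ran from -1.04 to -0.96 under DMSO and from -0.82 to -0.76 under CC-885. Upper-quartile scaling, which shifted the median of all genes by 0.12, put the DMSO median at -0.87 for members and -0.86 for other chromosome 10 genes; against genes on other chromosomes the members stood at -0.94 under each scaling. Under the other alternatives the members called higher numbered 28 to 36 in knockout and 26 to 28 in wild type, and those called lower 17 to 20 in knockout and 19 to 22 in wild type, the 28 in knockout being with upper-quartile scaling. No called result turned its direction. Of the responses and differences in response of named members that were not called, 12 took the other sign under at least 1 alternative, among them PDCD4 and IDE in wild type under upper-quartile scaling. Among named members, calls were lost for ACTR1A and BCCIP in wild type, NMT2, IDE, CUL2 and ZMYND11 in knockout, and VIM, DDX50, BTAF1 and BUB3 for the difference in response, under at least 1 alternative; the cause was not tested.

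Same-numbered libraries did not consistently deviate together in either drug response (correlations of -0.26 to 0.17). The labels do not say whether libraries of the same number were handled together. With a replicate block by title number, 35 members were called higher in knockout and 27 in wild type, 18 lower in knockout and 20 in wild type, and the difference in response was called higher for 19 and lower for 9. Blocking by the library-name number gave 35, 26, 17, 19, 17 and 8 in the same order. The median under DMSO was -0.99 with the title block. In the libraries whose names start with 51, which leave 1 wild-type DMSO library assumed to vary like the others, 36 members were called higher and 18 lower in knockout, 27 higher and 19 lower in wild type, and the difference in response was higher for 21 and lower for 11.

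Depth limits few members: the lowest count was 169, in NMT2. The number of clones per genotype, the copy number of chromosome 10 and the RNA per cell were not measured here.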
